A study of Mus musculus with 5 samples.

Results

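The cluster that opens with miR-322 and miR-503 is a run of microRNA genes on the mouse X chromosome, which goes on with those of miR-351, miR-542 and miR-450. Its members here were the 6 assays whose name, without the species prefix and the assay number, was miR-450a-5p, miR-542-5p, miR-542-3p, miR-351, miR-503 or miR-322. They were 6 of the 217 miRNA assays of the panel, and each name had 1 assay.

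The muscles were tibialis anterior, a leg muscle, of male C57BL/6J mice aged 4 to 6 months. The baseline muscles had no injection. The other muscles were taken on day 1, 3, 4, 7 or 21 after cardiotoxin, a snake venom toxin that destroys muscle fibres, had been injected at 2.5 µM in 100 µl into the anterior compartment of both hind limbs. The labels give 4 mice per time point and describe no saline-injected muscle, so injection and toxin cannot be told apart. Muscles of the remaining time points were not analysed here.

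MicroRNAs are short RNAs that lower the stability and translation of mRNAs, which they find mainly through the seed, the stretch of bases that starts at the second base from the 5′ end. miRNA genes that lie close together on a strand can be cut from a shared primary transcript, and each hairpin can give a mature miRNA from either arm. miR-322, the rodent counterpart of human miR-424, and miR-503 are known from cultured myoblasts, where they favour exit from the cell cycle and differentiation, and target the phosphatase Cdc25a. miR-351 has the seed of the miR-125 family and is known to target the cell cycle factor E2f3 in muscle progenitor cells.

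In RefSeq (GRCm38.p6) the hairpins lie within 6353 bases on the minus strand, at chrX:53047997-53054349. In the direction of transcription Mir322 comes first, at chrX:53054255-53054349. Mir503 follows after 200 bases, at chrX:53053984-53054054. The mature arms of Mir351 span chrX:53053276-53053338, and Mir542 lies 3788 bases further on, at chrX:53049403-53049487. Mir450-2 at chrX:53048299-53048367, Mir450-1 at chrX:53048154-53048244 and Mir450b at chrX:53047997-53048078 close the run. Mir322, Mir503 and Mir351 lie within the long non-coding RNA gene C430049B03Rik in the same annotation. No assay for miR-450b is among the 217.

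The mature sequences are shown because the seed decides which other miRNAs of the panel can share targets with a member. Capitals mark the seed, bases 2 to 8 from the 5′ end. The files do not name the arm of the miR-322, miR-503 and miR-351 assays; the 5p arm is shown, and for miR-322, whose name has been used for both arms, the 3p arm too.
miR-322-5p: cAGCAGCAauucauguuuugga
miR-322-3p: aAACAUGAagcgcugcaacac
miR-503-5p: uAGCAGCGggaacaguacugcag
miR-351-5p: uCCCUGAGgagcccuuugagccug
miR-542-3p: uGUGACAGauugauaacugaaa
miR-542-5p: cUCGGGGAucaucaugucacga
miR-450a-5p: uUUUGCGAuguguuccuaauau

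miR-322-5p and miR-503-5p share bases 2 to 7, AGCAGC, and differ at base 8. The other members share no seed with each other or with this pair. miR-450a-5p is read from both Mir450-1 and Mir450-2, so its assay cannot tell the 2 hairpins apart. The 2 arms of the miR-542 hairpin, in capitals below, were each measured by an assay of their own.
Mir542: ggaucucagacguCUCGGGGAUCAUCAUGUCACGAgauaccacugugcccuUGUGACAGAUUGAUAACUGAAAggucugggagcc

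Each assay was a TaqMan RT-PCR, and its readout was the threshold cycle (Ct), at which the product becomes detectable. A lower Ct means more RNA, and 1 cycle is a factor of 2 if the PCR doubles perfectly. Each assay had 4 values at baseline and on each day, taken as the 4 mice, which the files do not state; if some are repeats of a muscle, the p-values measure technical spread. Ct values of different assays do not compare amounts of different miRNAs, so levels are compared within an assay, or as changes.

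U6, the small nuclear RNA that the files mark as the control, averaged Ct 14.8 at baseline and 12.5, 13.0, 13.2, 13.6 and 14.6 on days 1, 3, 4, 7 and 21. The median change in Ct from baseline over the 205 miRNAs under Ct 35 in every value was -0.38, -0.71, -0.94, -1.19 and -0.15 cycles on those days (mean of the 4 values). Relative to U6, the median change over all miRNAs tested was log2 -1.95, -1.17, -0.61, -0.028 and -0.12 on those days. The levels below are relative to the median miRNA: each value's median change from the baseline mean over the same 205 miRNAs was subtracted. The residual SD of the median assay was 0.27 log2 on that scale and 0.64 log2 relative to U6. A member is said to have risen or fallen only where limma, with Benjamini-Hochberg adjustment over all miRNAs tested in the comparison, gave an adjusted p under 0.05 in the same direction relative to the median miRNA and to U6. Otherwise it is called higher or lower relative to the median miRNA. All 144 member values lay under Ct 35, the limit of detection used.

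Most muscle fibre miRNAs of the panel fell on each day. Of all miRNAs tested, 38.9%, 41.0%, 41.3%, 35.7% and 19.2% fell on days 1, 3, 4, 7 and 21. Of miR-1, miR-133a, miR-133b, miR-486 and miR-499, 5, 4, 5, 4 and 4 fell on days 1, 3, 4, 7 and 21, and miR-499 was undetected on day 3. Their summed level, as log2 against the baseline mean, lay between -4.18 and -2.30 on day 1, -6.59 and -4.25 on day 3, -4.92 and -3.56 on day 4, -3.55 and -2.90 on day 7, and -1.51 and -1.10 on day 21. The summed level of 7 myeloid and lymphoid miRNAs lay between 3.65 and 3.88 on day 1, 1.29 and 1.52 on day 3, 0.30 and 0.43 on day 4, -0.42 and -0.020 on day 7, and -0.33 and -0.038 on day 21. That list was mixed: on day 7, miR-142-3p and miR-142-5p rose, with log2 changes of 2.2 and 2.1. On the same day miR-150 and miR-155 fell, with changes of -2.1 and -1.2. In whole muscle, fewer cells of a type and less RNA per cell cannot be told apart, and the part of these cell types in the changes of the cluster was not tested.

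The cluster did not move as a block. miR-351 rose on all 5 days and reached 3341 times its baseline level on day 4. miR-503 rose on days 3, 4, 7 and 21, with its highest level also on day 4. miR-542-3p rose on days 4, 7 and 21, and miR-542-5p fell on day 3 and rose on days 7 and 21. miR-322 fell on days 3 and 7, and miR-450a-5p fell on day 3 and passed on both scales in no other comparison with baseline. The step that all 6 members shared was that from day 3 to day 4.

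In counts, 1 of 6 members rose and 0 fell on day 1, when 9.00% of all miRNAs tested rose and 38.9% fell. On day 3, 2 rose and 3 fell, against 19.3% and 41.0% of all. On day 4, 3 rose and 0 fell, against 25.4% and 41.3%. On day 7, 4 rose and 1 fell, against 31.5% and 35.7%. On day 21, 4 rose and 0 fell, against 22.1% and 19.2%. The median change of the members relative to the median miRNA was log2 1.21, -0.17, 1.44, 1.99 and 1.59 on days 1, 3, 4, 7 and 21, beside -0.042, -0.046, 0.061, 0.065 and -0.0013 over all miRNAs tested. With 6 members these shares are coarse. On the scale of the median miRNA alone, 5, 2, 4, 5 and 5 members were higher on days 1, 3, 4, 7 and 21, against 41.2%, 38.7%, 43.2%, 40.4% and 35.7% of all, and 0, 3, 0, 1 and 0 were lower, against 38.9%, 41.0%, 41.3%, 42.3% and 37.6%.

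**Figure D1:**
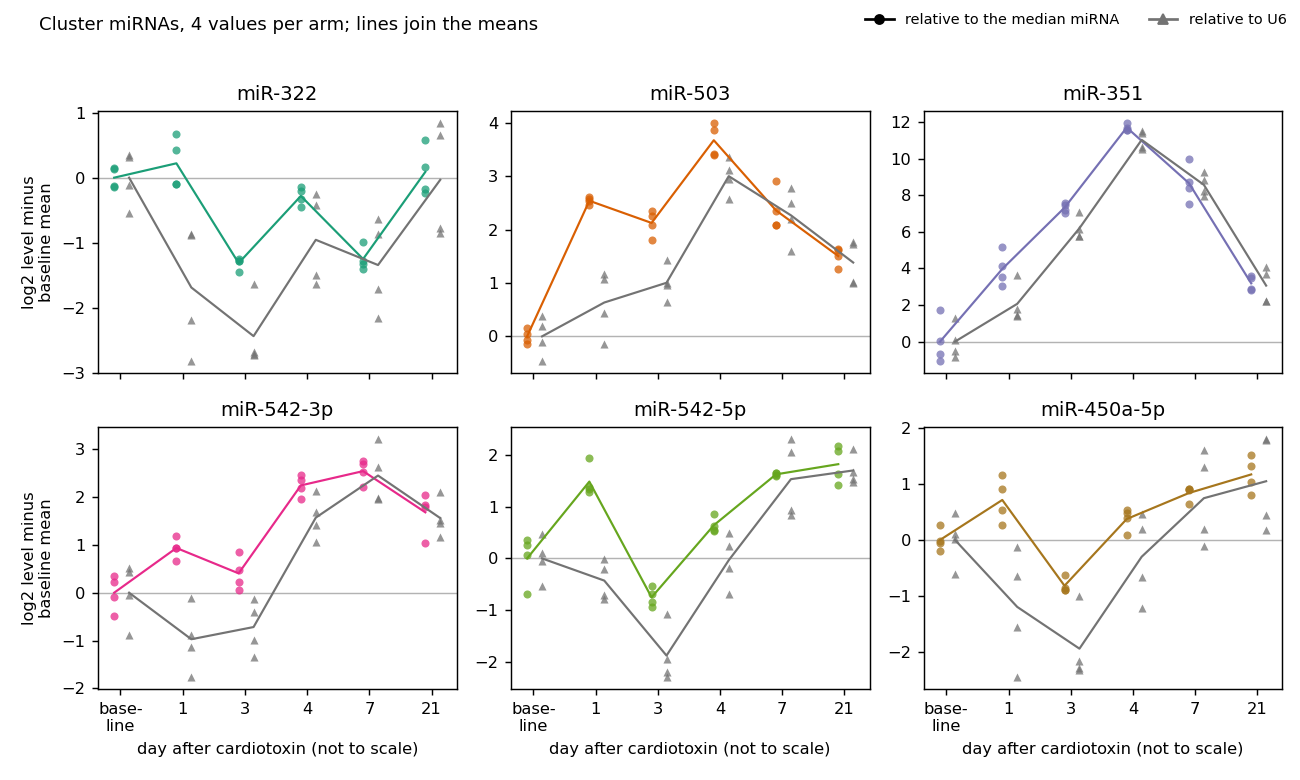
Log2 level minus the baseline mean for each of the 6 members (vertical axis, a scale of its own in each panel) at baseline and on days 1, 3, 4, 7 and 21 (horizontal axis, not to scale). Coloured circles are the 4 values relative to the median miRNA and grey triangles the same values relative to U6; lines join the means. miR-351 is highest on day 4 on both scales, at 11.71 and 11.03, while the day 1 values of the other members differ in sign or size between the scales.

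miR-351 had the widest range of the cluster. Its raw Ct values at baseline were 32.53, 34.90, 34.96 and 33.71, close to the limit of 35, with a mean of 34.03 ± 1.15 (SD, n = 4). Relative to the median miRNA the baseline values were Ct 32.31, 34.72, 35.09 and 33.98, those of day 1 were 30.97, 28.85, 29.89 and 30.50, and those of day 3 were 26.57, 26.45, 26.82 and 26.97. Those of day 4 were 22.44, 22.44, 22.34 and 22.06, those of day 7 were 25.30, 25.62, 26.49 and 24.04, and those of day 21 were 30.45, 30.57, 31.16 and 31.18. No value after injury overlapped the baseline values. The 4 values of day 4 were the closest together and had the lowest Ct.

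The change of miR-351 against baseline was log2 3.97 ± 0.52 on day 1, 7.32 ± 0.52 on day 3, 11.71 ± 0.52 on day 4, 8.66 ± 0.52 on day 7 and 3.18 ± 0.52 on day 21 (limma SE, n = 4 each). These are 15.7-fold, 160-fold, 3341-fold, 405-fold and 9.09-fold increases. The limma adjusted p was 4.2e-07, 1.9e-11, 1.1e-14, 1.2e-12 and 1.3e-05. Relative to U6 the changes were 2.06, 6.20, 11.03, 8.57 and 3.06, with the largest adjusted p 0.00071 on day 1. Among all miRNAs tested, this increase ranked 13 on day 1, 2 on day 3, 1 on day 4, 2 on day 7 and 12 on day 21. Because the baseline lay near the limit, where its values spread over 2.43 cycles, the size of these folds is less exact than their direction.

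In order of level, day 4 of miR-351 stood above day 7 by 3.04, day 7 above day 3 by 1.34, and day 3 above day 1 by 3.35, each with a limma adjusted p under 0.05 on both scales. Day 1 stood above day 21 by 0.79 log2, which did not pass (limma adjusted p = 0.16). Day 21 stood above baseline by 3.18.

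miR-503 had a tighter spread. Its values relative to the median miRNA were Ct 26.01, 25.91, 25.79 and 26.10 at baseline, 23.50, 23.34, 23.38 and 23.42 on day 1, and 24.15, 23.59, 23.86 and 23.69 on day 3. They were 22.52, 21.95, 22.55 and 22.07 on day 4, 23.60, 23.86, 23.87 and 23.03 on day 7, and 24.70, 24.44, 24.32 and 24.32 on day 21. Every value after injury had a lower Ct than every baseline value. The change was log2 2.13 ± 0.18 on day 3, 3.68 ± 0.18 on day 4, 2.36 ± 0.18 on day 7 and 1.51 ± 0.18 on day 21 (limma SE, n = 4 each), or 4.37-fold, 12.8-fold, 5.14-fold and 2.84-fold.

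The limma adjusted p of miR-503 on those 4 days was at most 1.5e-07 against the median miRNA and at most 0.020 with U6 as control, where the changes were 1.01, 3.01, 2.27 and 1.39. On day 1 the change was 2.54 ± 0.18 against the median miRNA, which passed, and 0.64 ± 0.38 with U6 as control (limma adjusted p = 0.13). Its level on day 4 stood 1.14 log2 above that of day 1, the next in order, and passed on both scales. Relative to the median miRNA, the gaps of 0.18 between day 1 and day 7 and of 0.24 between day 7 and day 3 did not pass (limma adjusted p = 0.34 and 0.24). With U6 as control both comparisons passed, with day 7 above day 1 and above day 3 (limma adjusted p = 0.00038 and 0.0066). Day 3 stood 0.62 above day 21, which passed against the median miRNA and did not with U6 as control (limma adjusted p = 0.0028 and 0.38), and day 21 stood 1.51 above baseline.

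miR-322 lies 200 bases from miR-503 and did not follow it. Its values relative to the median miRNA were Ct 20.52, 20.23, 20.26 and 20.54 at baseline, 19.97, 19.72, 20.49 and 20.49 on day 1, and 21.64, 21.66, 21.66 and 21.83 on day 3. They were 20.58, 20.84, 20.53 and 20.72 on day 4, 21.79, 21.67, 21.72 and 21.37 on day 7, and 20.22, 19.80, 20.62 and 20.56 on day 21. The values of days 3 and 7 lay clear of baseline on the side of less RNA, while those of days 1, 4 and 21 overlapped it.

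The change of miR-322 was log2 -1.31 ± 0.18 on day 3, 2.48-fold lower, and -1.25 ± 0.18 on day 7, 2.38-fold lower (limma SE, n = 4 each; limma adjusted p = 6.7e-07 and 1.2e-06). Relative to U6 it was -2.44 and -1.34 (limma adjusted p = 6.5e-05 and 0.017). On day 4 it was -0.28 ± 0.18 and on day 21 it was 0.09 ± 0.18, and neither passed on either scale. On day 1 the scales parted: 0.22 ± 0.18 against the median miRNA (limma adjusted p = 0.26), and -1.69 ± 0.49 with U6 as control (limma adjusted p = 0.0028). In order of level relative to the median miRNA, the groups ran day 1, day 21, baseline, day 4, day 7 and day 3. Among neighbours in that order only day 4 and day 7 differed on that scale, by 0.97. That gap did not pass with U6 as control (limma adjusted p = 0.61). Groups further apart in the order can differ without such a break. With U6 as control day 1 stood below day 21 (limma adjusted p = 0.0034).

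The 2 arms of miR-542 come from 1 hairpin. miR-542-3p, which is known in human cells to target the survival factor survivin, had values relative to the median miRNA of Ct 29.70, 28.86, 29.00 and 29.30 at baseline, 28.03, 28.55, 28.27 and 28.27 on day 1, and 28.98, 29.15, 28.74 and 28.36 on day 3. They were 27.04, 26.75, 27.25 and 26.85 on day 4, 26.47, 27.00, 26.70 and 26.52 on day 7, and 28.17, 27.37, 27.43 and 27.16 on day 21. The day 3 values overlapped baseline and those of the other days did not. The change was log2 2.24 ± 0.22 on day 4, 2.54 ± 0.22 on day 7 and 1.68 ± 0.22 on day 21 (limma SE, n = 4 each), or 4.74-fold, 5.83-fold and 3.21-fold. Relative to U6 these were 1.57, 2.45 and 1.56, with limma adjusted p at most 0.0038.

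miR-542-5p had values relative to the median miRNA of Ct 28.68, 29.72, 28.79 and 28.98 at baseline, 27.77, 27.71, 27.11 and 27.66 on day 1, and 29.73, 29.58, 29.88 and 29.97 on day 3. They were 28.50, 28.18, 28.52 and 28.42 on day 4, 27.46, 27.40, 27.44 and 27.39 on day 7, and 27.42, 27.63, 26.88 and 26.98 on day 21. A single baseline value, 29.72, fell among the day 3 values. The arm fell on day 3 by 0.75 ± 0.20 log2 and rose by 1.62 ± 0.20 on day 7 and 1.82 ± 0.20 on day 21, 3.07-fold and 3.52-fold (limma SE, n = 4 each; limma adjusted p = 0.0018, 1.7e-07 and 6.7e-08). Relative to U6 these were -1.87, 1.53 and 1.70.

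On day 1 the calls of both arms depended on the scale, and on day 4 that of miR-542-5p did. On day 1, miR-542-3p was 0.94 ± 0.22 higher against the median miRNA and changed by -0.97 ± 0.42 with U6 as control, each passing in its own direction. miR-542-5p was 1.48 ± 0.20 higher against the median miRNA, and -0.43 ± 0.40 with U6 as control (limma adjusted p = 0.34). On day 4, miR-542-5p was 0.64 ± 0.20 higher against the median miRNA and -0.035 ± 0.40 with U6 as control (limma adjusted p = 0.94).

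miR-450a-5p, the last member in the direction of transcription with an assay, rose in no comparison with baseline. Its values relative to the median miRNA were Ct 26.78, 26.64, 26.31 and 26.60 at baseline, 25.43, 25.68, 26.32 and 26.05 on day 1, and 27.20, 27.47, 27.44 and 27.48 on day 3. They were 26.06, 26.19, 26.10 and 26.49 on day 4, 25.94, 25.69, 25.68 and 25.67 on day 7, and 25.27, 25.06, 25.78 and 25.54 on day 21. Days 3, 7 and 21 lay clear of baseline, day 3 on the side of less RNA.

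miR-450a-5p fell on day 3 by 0.82 ± 0.18 log2, 1.76-fold lower (limma SE, n = 4; limma adjusted p = 0.00022, and 0.0013 relative to U6). It was 0.84 ± 0.18 higher on day 7 and 1.17 ± 0.18 higher on day 21 relative to the median miRNA, but with U6 as the control the changes of 0.74 and 1.05 did not pass (limma adjusted p = 0.20 and 0.10). On day 4 the change was 0.37 ± 0.18 (limma adjusted p = 0.054). On day 1 it was 0.71 ± 0.18 higher against the median miRNA and changed by -1.20 ± 0.51 with U6 as control, each passing in its own direction.

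From day 3 to day 4 all 6 members rose and 0 fell, against 21.3% and 1.85% of all miRNAs tested. The increase of day 4 over day 3 was log2 4.38 ± 0.52 for miR-351, 1.84 ± 0.22 for miR-542-3p, 1.55 ± 0.18 for miR-503, 1.39 ± 0.20 for miR-542-5p, 1.19 ± 0.18 for miR-450a-5p and 1.03 ± 0.18 for miR-322 (limma SE, n = 4 each). The limma adjusted p was at most 5.5e-05 against the median miRNA and at most 0.026 with U6 as control. The median over the members was 1.47, beside -0.11 over all miRNAs tested. These folds ran from 2.04 for miR-322 to 20.9 for miR-351. With the small RNA Y1 as control, the increase passed for miR-351 and miR-542-3p only, and that of miR-322 was 0.0075.

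The other steps split the cluster. From day 1 to day 3, miR-351 rose by log2 3.35 ± 0.52 and miR-542-5p fell by 2.23 ± 0.20, in a step in which 31.0% of all miRNAs rose and 13.1% fell. miR-322 and miR-450a-5p both changed by -1.53 ± 0.18 against the median miRNA, and by -0.75 and -0.74 with U6 as control, which did not pass. From day 4 to day 7, miR-542-5p rose by 0.98 ± 0.20 and miR-351 fell by 3.04 ± 0.52, where 16.1% of all rose and 0.922% fell. That fall of miR-351 ranked last of 217 changes. From day 7 to day 21, miR-322 rose by 1.34 ± 0.18 and miR-351 fell by 5.48 ± 0.52, where 19.4% rose and 14.4% fell (limma SE, n = 4 in each group throughout). On the scale of the median miRNA alone, 1, 6, 2 and 1 members were higher in the 4 steps, against 31.5%, 25.9%, 24.0% and 38.4% of all, and 5, 0, 3 and 3 were lower, against 48.4%, 28.2%, 25.8% and 32.4%.

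Days and baseline can also be compared without any control RNA, through the Ct difference of 2 members in the same RNA sample. The nth values of all assays were taken as 1 sample, since removing a value's own median change lowered the SD of the median assay in 5 of 6 groups, for example to 0.21 from 0.32 at baseline, and left it at 0.21 on day 21. Each of the 15 pairs of members was compared with baseline on each of 5 days by an exact two-sided permutation test of 4 against 4 values, adjusted by Benjamini-Hochberg over the 75 comparisons. The smallest p this design allows is 0.0286. Of the 75 differences 50 changed, each with adjusted p = 0.0429, and these were the 50 in which day and baseline values did not overlap.

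By day, 7, 12, 14, 12 and 5 of 15 pairs changed on days 1, 3, 4, 7 and 21. Over all 20910 pairs of the 205 miRNAs, 71.8%, 78.1%, 80.5%, 78.6% and 63.6% of differences did not overlap with baseline on those days. The members' own shares were 46.7%, 80.0%, 93.3%, 80.0% and 33.3%, below those of all pairs on days 1 and 21 and near or above them on days 3, 4 and 7. Pairs that share a member are not independent.

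miR-503 against miR-322, neighbours whose 5p arms share a seed core, changed on every day. The Ct of miR-322 minus that of miR-503 was -3.53, -3.62, -2.89 and -2.93 on day 1, and -1.94, -1.11, -2.02 and -1.35 on day 4, against -5.49, -5.68, -5.53 and -5.56 at baseline. The baseline values lay within 0.19 cycles of each other and lay clear of both days. Relative to miR-322, miR-503 increased 5.00-fold on day 1, 10.9-fold on day 3, 15.6-fold on day 4, 12.2-fold on day 7 and 2.67-fold on day 21. miR-351 relative to miR-322 increased 13.5-fold, 398-fold, 4061-fold, 964-fold and 8.54-fold on those days. The baseline values of that difference were spread over 3.04 cycles, so these folds are less exact than those of miR-503.

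The 5 changes of day 21 were exactly the 5 pairs that include miR-322. There miR-351 had increased 8.54-fold, miR-542-5p 3.31-fold, miR-542-3p 3.02-fold, miR-503 2.67-fold and miR-450a-5p 2.11-fold relative to miR-322, and none of the 10 pairs among those 5 members passed. The smallest adjusted p among these was 0.0779, for miR-351 over miR-450a-5p at 4.04-fold. miR-351 was also up 3.20-fold over miR-503, 2.83-fold over miR-542-3p and 2.58-fold over miR-542-5p. The baseline values of these miR-351 differences were spread over 2.67 to 3.48 cycles, so their failure to pass does not show a constant ratio. On days 4 and 7 as well all 5 increases relative to miR-322 passed. On days 1 and 3, 4 of 5 passed: miR-542-3p on day 1, at 1.64-fold, and miR-542-5p on day 3, at 1.48-fold, did not (exact permutation test, adjusted p = 0.138 and 0.0779).

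miR-351 relative to miR-503 increased 36.6-fold on day 3, 261-fold on day 4 and 78.8-fold on day 7, and did not pass on days 1 and 21 (exact permutation test, adjusted p = 0.167 and 0.107). On day 4 the Ct of miR-503 minus that of miR-351 was 0.09, -0.49, 0.21 and 0.01, against -6.30, -8.81, -9.30 and -7.88 at baseline. miR-503 relative to miR-542-3p increased 3.05-fold, 3.30-fold and 2.70-fold on days 1, 3 and 4. On days 7 and 21 that difference was log2 -0.18 and -0.17 from baseline and the values overlapped (exact permutation test, adjusted p = 0.417 for both).

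**Figure D2:**
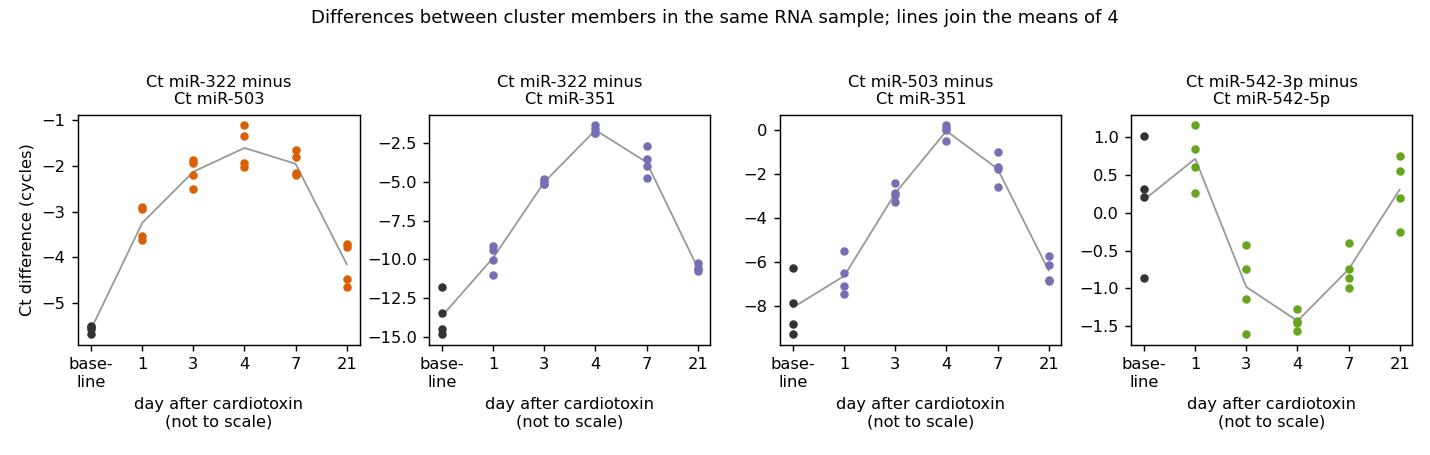
Ct difference in cycles between 2 cluster members in the same RNA sample (vertical axis, a scale of its own in each panel) at baseline, in black, and on days 1, 3, 4, 7 and 21, in colour (horizontal axis, not to scale); points are the 4 values and lines join their means. miR-322 minus miR-503 lies between -5.68 and -5.49 at baseline and nowhere below -4.64 after injury, and miR-503 minus miR-351 averages -0.045 on day 4.

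The difference between the 2 arms of the miR-542 hairpin printed above passed on day 4 alone. On that day 80.5% of all pairs of the 205 miRNAs did not overlap with baseline. The Ct of miR-542-3p minus that of miR-542-5p was -1.46, -1.43, -1.27 and -1.57 on day 4, against 1.02, -0.86, 0.21 and 0.32 at baseline. The day 4 values lay together below the baseline values, which were spread over 1.88 cycles. The 3p arm had increased 3.04-fold relative to the 5p arm on day 4 (exact permutation test, adjusted p = 0.0429). On days 3 and 7 the increase was 2.23-fold and 1.90-fold with adjusted p = 0.107, and on days 1 and 21 the values were 0.685-fold and 0.911-fold (adjusted p = 0.288 and 0.840), all by the exact permutation test.

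miR-542-5p and miR-450a-5p, from different hairpins, kept closest together. Their difference passed on day 7 alone, with miR-542-5p up 1.72-fold relative to miR-450a-5p. Their changes over the 5 days differed by a root mean square of 0.58 log2, the smallest of the 15 pairs of members. The largest, 8.25, was that of miR-322 and miR-351.

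How far each change rested on the control was read from 7 scalings: the median miRNA, U6, snoRNA202, snoRNA135, U87, Y1 and no control. miR-351 was higher than baseline, with a limma adjusted p under 0.05, under 7 of 7 on every day, and its highest mean was on day 4 under all 7. miR-503 was higher under 7 of 7 on days 4 and 7, and under 6 on days 1, 3 and 21, with U6 the exception on day 1 and snoRNA135 on the others. miR-542-3p was higher under 7 of 7 on days 4, 7 and 21, and miR-542-5p under 7 of 7 on day 21 and 6 on day 7. miR-450a-5p was higher under 5 of 7 on days 7 and 21, with U6 among the exceptions on both days.

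The decreases were less uniform. miR-322 was lower on day 3 under 6 of 7 scalings and on day 7 under 5, with Y1 the exception on both days and raw Ct on day 7. miR-542-5p and miR-450a-5p were lower on day 3 under 5 of 7, and under Y1 they were 0.57 and 0.50 above baseline without passing; raw Ct was the other exception. The highest mean of miR-503 was on day 4 and that of miR-542-3p on day 7 except under Y1, where both were on day 1. For miR-542-3p days 7 and 4 did not differ (limma adjusted p = 0.27). Day 7 or day 21 was highest for miR-542-5p and miR-450a-5p, depending on the scaling, and day 1 under Y1.

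**Figure D3:**
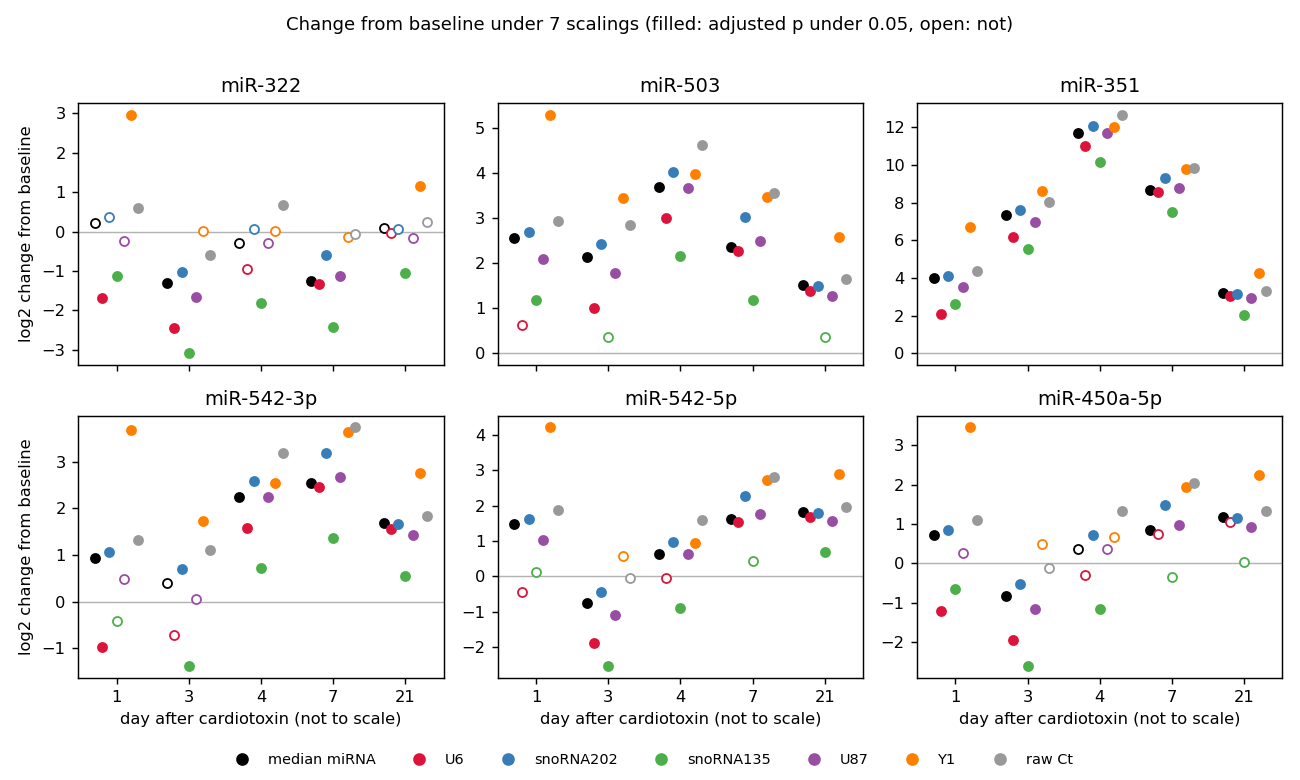
Log2 change from baseline of each member (vertical axis, a scale of its own in each panel) on days 1, 3, 4, 7 and 21 (horizontal axis, not to scale) under 7 scalings, shown by colour; filled points passed at a limma adjusted p under 0.05 and open points did not. The points of miR-351 are filled and at 2.04 or more on every day, whereas those of miR-322 lie on both sides of 0 on days 1, 4 and 21.

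The seed of miR-322-5p, bases 2 to 8, was carried by 5 other miRNAs of the panel, and that of miR-351-5p by 2. Seeds could be compared for the 192 of 217 assays that matched a mature miRNA in RefSeq. Their sequences are shown because miRNAs with a common seed can bind the same target sites, and capitals mark the seed. The 5 mates of miR-322-5p share bases 2 to 7 with miR-503-5p as well.
miR-15a: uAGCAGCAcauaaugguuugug
miR-15b: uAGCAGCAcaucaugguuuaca
miR-16: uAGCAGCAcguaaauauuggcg
miR-195: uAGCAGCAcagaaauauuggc
miR-497: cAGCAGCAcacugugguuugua
miR-125a-5p: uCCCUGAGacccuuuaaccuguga
miR-125b-5p: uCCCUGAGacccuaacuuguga

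Among the 5 mates of miR-322 and miR-503, 0, 1, 1, 0 and 0 rose and 1, 3, 4, 3 and 1 fell on days 1, 3, 4, 7 and 21, beside 9.00%, 19.3%, 25.4%, 31.5% and 22.1% of all miRNAs tested that rose and 38.9%, 41.0%, 41.3%, 35.7% and 19.2% that fell. On days 3 and 7, when miR-322 fell, 3 of the 5 mates fell as well, miR-16 and miR-195 on both days. miR-15b was the one that rose, on days 3 and 4, by log2 2.43 ± 0.15 and 1.91 ± 0.15 (limma SE, n = 4 each), and by 1.31 and 1.24 relative to U6. On day 1, miR-15a, miR-15b and miR-16 were higher relative to the median miRNA, by 1.06, 2.87 and 1.53, and did not pass relative to U6. The values of miR-15b relative to the median miRNA were Ct 20.18, 20.26, 20.17 and 20.01 on day 4, against 22.37, 22.09, 21.61 and 22.20 at baseline, without overlap.

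miR-16 and miR-195 fell on days 3, 4 and 7, and miR-16 also on day 21. The values of miR-16 relative to the median miRNA were Ct 17.26, 17.49, 17.60 and 17.31 on day 7, against 14.87, 15.14, 15.35 and 15.77 at baseline, a change of log2 -2.13 ± 0.17. miR-195 changed by -1.68 ± 0.11 on day 4, and miR-497, encoded next to it, by -0.53 ± 0.19 (limma SE, n = 4 each; limma adjusted p = 1.1e-11 and 0.015). On day 4, when miR-503 stood at 3.68, 4 of the 5 miRNAs that share its bases 2 to 7 thus fell and miR-15b rose.

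Of the mates of miR-351, miR-125b-5p fell on days 1, 3 and 4, with log2 changes of -1.53 ± 0.14, -0.82 ± 0.14 and -0.91 ± 0.14, while miR-125a-5p changed by -0.32 to -0.63 over the 5 days and did not pass on both scales on any day. The miR-125b-5p values relative to the median miRNA were Ct 19.16, 18.90, 19.18 and 19.17 on day 4, against 18.25, 18.16, 18.13 and 18.22 at baseline. The values of each day lay together and did not overlap. Neither mate rose on any day.

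**Figure D4:**
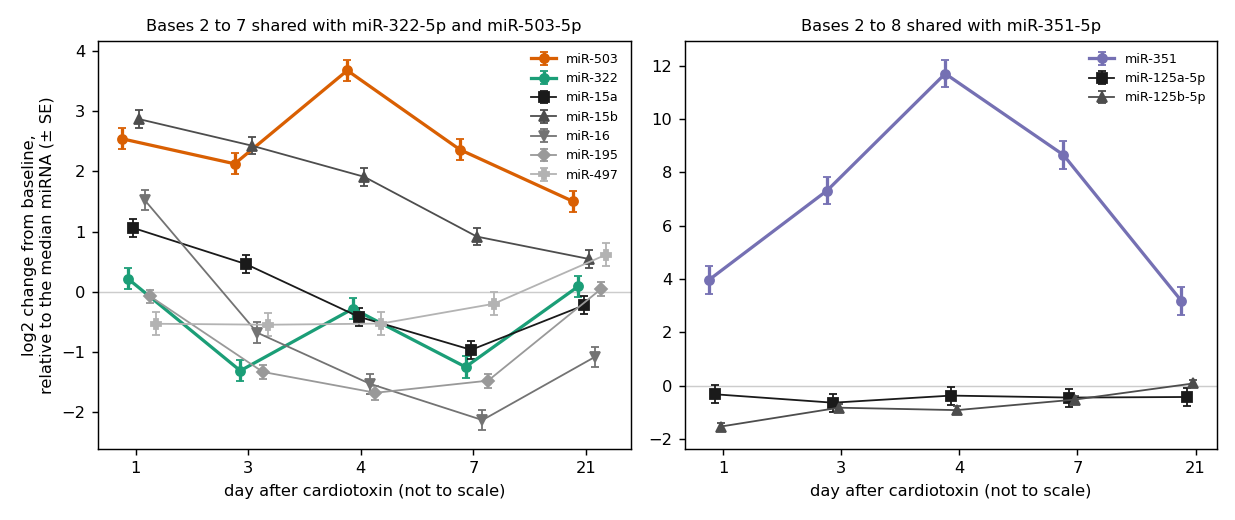
Log2 change from baseline relative to the median miRNA (vertical axis, ± limma SE, n = 4 each) on days 1, 3, 4, 7 and 21 (horizontal axis, not to scale). The left panel holds miR-503, miR-322 and the 5 miRNAs that share bases 2 to 7 with them, the right panel miR-351 and the 2 miRNAs with its seed. miR-15b is above 0 on every day but lies at 1.91 on day 4, when miR-503 is at 3.68, and the miR-125 pair stays at or below 0.09 while miR-351 reaches 11.71.

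The panel miRNAs whose 5 changes from baseline were most like a member's were found by the root mean square difference over the 5 days, among 204 miRNAs tested on all of them. The nearest to miR-322 were miR-103 (0.47 log2) and miR-138 (0.48), to miR-503 miR-188-5p (0.64) and miR-130b (0.69), and to miR-542-3p miR-532-5p (0.54) and miR-667 (0.62). Those nearest to miR-450a-5p were miR-148a (0.54) and let-7c (0.66), and to miR-542-5p miR-146a (0.91) and miR-148a (1.00). Nothing was close to miR-351: the nearest, miR-31 and miR-433, differed from it by 3.09 and 3.35, and both were still 6.50 and 8.44 above baseline on day 21, when miR-351 was at 3.18.

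Of a list of 18 other miRNAs with a known role in myoblast proliferation or differentiation, which holds the fibre miRNAs given above, 17 were measured. On days 1, 3, 4, 7 and 21, 1, 2, 2, 3 and 2 of them rose and 10, 9, 11, 9 and 7 fell, with 16 tested on day 3, beside the shares of all miRNAs given for the seed-mates. miR-31, linked to the quiescence of satellite cells, the muscle stem cells, rose by log2 6.50 ± 0.24 on day 4, and the p53 target miR-34c by 5.10 ± 0.26. miR-1, which favours differentiation, fell by 4.77 ± 0.47 and miR-133a fell by 4.52 ± 0.43 on that day (limma SE, n = 4 each).

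Markers of other cell types were read as well, and their part in the changes of the cluster was not tested. Of all miRNAs tested, 9.00%, 19.3%, 25.4%, 31.5% and 22.1% rose on days 1, 3, 4, 7 and 21. On those days 38.9%, 41.0%, 41.3%, 35.7% and 19.2% fell. Both endothelial miRNAs, miR-126-3p and miR-126-5p, fell on days 3, 4 and 7, when their summed level lay between -2.84 and -1.61 log2 of baseline. miR-451 of red cells fell on days 4 and 7. Its day 4 values, between -1.14 and -0.82, overlapped the baseline values, which lay between -1.05 and 0.96. Those of day 7 lay between -2.97 and -1.67. Of 5 fibroblast and smooth muscle miRNAs, 0, 0, 0, 2 and 0 rose and 3, 2, 2, 2 and 1 fell on days 1, 3, 4, 7 and 21. The share of these 5 that fell was near that of all miRNAs on days 3, 4, 7 and 21. The summed level of these 5 lay between -2.80 and -1.01 over the 5 days, but its parts moved in opposite directions. On day 7, miR-199a-5p and miR-214 rose, with log2 changes of 2.2 and 1.2, and miR-145 and miR-143 fell, with -3.2 and -2.4. Of 5 epithelial miRNAs 4 were tested, and 4, 4, 3, 3 and 0 rose, with 1 fallen on day 21; their summed level lay between 4.49 and 4.80 on day 1 and between -1.49 and -0.70 on day 21. miR-429 was undetected at baseline and on day 21. Of the 7 myeloid and lymphoid miRNAs 3, 3, 3, 2 and 0 rose and 0, 2, 2, 2 and 0 fell.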

How the data were processed

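Per the labels' protocols, part of each tibialis anterior was homogenised, its total RNA (integrity number above 9) was extracted with miRNeasy columns, and the TaqMan reactions ran through 40 cycles on an Applied Biosystems 7900HT. The deposited files hold the authors' raw Ct values, with no normalization, for 222 assays in 5 files; the baseline values were identical in all 5 and were used once. Neither the Ct threshold nor the RNA input is given in the sources used here. There is no read depth; 4 values per time point limit the precision.

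Levels were minus Ct relative to the median miRNA, or to U6 and other controls. An assay was tested where Ct was under 35 in at least 3 of 4 values of both groups compared, and values at 40 were left out. All 6 groups entered 1 fit in limma 3.58.1 (R 4.3.3) with 15 contrasts, and p-values were two-sided and adjusted over all miRNAs tested. Permutation tests of 4 against 4 values went through all 70 splits, in Python 3.11.15. The fit was tested on simulated data. Sequences and positions come from RefSeq (GRCm38.p6), matched by name. Summed levels of lists added the linear levels of their assays, so the assays of lowest Ct weigh most.

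The members, the lists (muscle fibre, myeloid and lymphoid, endothelial, red cell, fibroblast and smooth muscle, epithelial, myoblast) and the tests were chosen with earlier results of these data known. Named were all members, their seed-mates, the 2 nearest miRNAs to each member, the controls, the markers and up to 4 miRNAs a day of the myoblast list. Of the fibre list miR-206 and of the red cell list miR-144 were not analysed here.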

Additional observations from a re-analysis of the deposited data

Results flagged for a closer look

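In 4 of the 36 sets of 4 values (6 members, baseline and 5 days), 1 value stood apart from the other 3 by a gap that, divided by the range, exceeded Dixon's limit at 95%; chance alone flags about 1 in 20 sets. For miR-322 on day 3 the value was Ct 21.83 against 21.64 to 21.67 for the others, a ratio of 0.88. For miR-450a-5p on day 3 it was 27.20 against 27.45 to 27.48, a ratio of 0.874. For miR-450a-5p on day 7 it was 25.94 against 25.67 to 25.69, a ratio of 0.916. The whole range in these 3 sets was 0.19, 0.28 and 0.27 cycles. For miR-542-5p on day 1 the value was 27.11 against 27.66 to 27.77, a ratio of 0.837. All are Ct relative to the median miRNA.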

How the results depend on the processing

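No paired analysis was possible because the mice of different time points differ and the labels carry no replicate numbers. The alternatives covered 5 control RNAs or none, the median without the 6 members, Ct limits of 32 and 38, values at 40 kept, limma-trend, 2 groups per fit and each value left out in turn. The median without the members, the limit of 38, values kept at 40, limma-trend and 2-group fits left each count of members within 1.5 times its value. With the median miRNA as control, 5 members were higher and 0 lower on day 1, against 1 and 3 with U6, 2 and 2 with snoRNA135, and 3 higher with U87. On day 3, 2 were higher and 3 lower, against 1 higher with snoRNA135 or a limit of 32, where miR-351 could not be tested, and 0 lower with Y1 and 1 with raw Ct. On day 4, 0 were lower, against 3 with snoRNA135. On day 7, 5 were higher and 1 lower, against 3 higher with snoRNA135 and 0 lower with Y1 or raw Ct. On day 21, 5 were higher and 0 lower, against 3 and 1 with snoRNA135. From day 1 to day 3, 5 were lower, against 1 with U6 and 3 with snoRNA202, U87 or raw Ct. From day 3 to day 4, 6 were higher, against 2 with Y1. From day 4 to day 7, 2 were higher and 3 lower, against 1 higher with U6 or U87 and 1 lower with U6 or Y1. From day 7 to day 21, 1 was higher and 3 lower, against 0 higher with raw Ct, 1 lower with U6 and 5 lower with raw Ct.

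With each value left out in turn, 46 to 55 of 75 within-sample differences passed. The count higher was 2 to 3 on day 3, 3 to 5 on day 4, 1 to 2 from day 4 to day 7 and 1 to 2 from day 7 to day 21, and the count lower was 3 to 5 from day 1 to day 3. The last was 3 without value 3 or 4 of day 1 or value 1 of day 3. The count higher from day 4 to day 7 was 1 without value 4 of day 4 or value 2, 3 or 4 of day 7, and that from day 7 to day 21 was 2 without value 3 of day 21. The other counts did not change.

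These log2 changes had the opposite sign to the value relative to the median miRNA. On day 1 with U6, miR-322 was -1.69, miR-542-3p -0.97, miR-542-5p -0.43 and miR-450a-5p -1.20; with snoRNA135, miR-322 was -1.13, miR-542-3p -0.42 and miR-450a-5p -0.64; with U87, miR-322 was -0.23. On day 3 with Y1, miR-322 was 0.0075, miR-542-5p 0.57 and miR-450a-5p 0.50, and miR-542-3p was -0.72 with U6 and -1.37 with snoRNA135. On day 4, miR-322 was 0.058 with snoRNA202, 0.015 with Y1 and 0.66 with raw Ct. On that day miR-542-5p was -0.035 with U6 and -0.89 with snoRNA135, and miR-450a-5p -0.30 and -1.16. On day 7, miR-450a-5p was -0.34 with snoRNA135. On day 21, miR-322 was -0.033 with U6, -1.05 with snoRNA135, -0.15 with U87 and, with a value left out, between -0.070 (without value 2 of day 21) and 0.20. From day 1 to day 3 with U6, miR-503 was 0.37 and miR-542-3p 0.26. From day 7 to day 21, miR-542-5p was -0.47, -0.18 and -0.85 and miR-450a-5p -0.34, -0.045 and -0.71 with snoRNA202, U87 and raw Ct. The controls differed from each other in their change relative to the median miRNA. On that scale Y1 averaged Ct 20.31 at baseline and 23.04 and 21.63 on days 1 and 3. snoRNA135 averaged 20.27 at baseline and 18.92 and 18.50 on those days. In the same order U6 averaged 14.8, 12.9 and 13.7, snoRNA202 14.52, 14.65 and 14.81, and U87 21.44, 20.99 and 21.09. A change of a control and a change of the median miRNA cannot be told apart by these values. The cause of these differences between controls was not tested. Near the Ct limit, the baseline of miR-351 limits the size of its folds.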
